A study of Mus musculus with 11 samples.

Results

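Loss of estrogen receptor alpha was examined under placebo, by comparing the 3 knockout placebo libraries (KO placebo 1, 2 and 3) with the 2 wild-type placebo libraries (WT placebo 1 and 2). The 5 libraries were taken by their genotype and agent labels from 11 in the series, and the 14531 of 23420 listed genes that passed a filter on low counts were tested. RNA came from the mandibular condylar fibrocartilage, the tissue that covers the jaw joint and grows the condyle, of C57BL/6 female mice. All mice, controls included, were ovariectomized at 6 weeks of age and carried a placebo or a 60-day release pellet with 0.01 mg estradiol for 1 week, so tissue was taken at 7 weeks. The genotype of the KO group is given as ERalphaKO, and neither the allele nor the part of the gene removed is given in the labels used here. The KO mice had no pellet estradiol in this comparison and neither did the WT mice; the other 6 libraries, 3 per genotype, came from mice with estradiol. All cells of the tissue were sequenced together after poly-A selection. Whether each library is a separate animal is not stated, and the p-values measure only the spread between these libraries, which may be technical.

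Estrogen receptor alpha, the product of Esr1, is a nuclear receptor that binds estradiol and switches genes on or off, directly at estrogen response elements or through other DNA-bound factors. It can also act without added ligand. In the condyle, progenitor cells under a fibrous surface become chondrocytes, which enlarge (hypertrophy), express type X collagen and Indian hedgehog, and give way to bone, and estrogen is known to slow growth of this kind of cartilage.

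Totals of the 5 placebo libraries ran from 16.5 to 24.0 M counts. Levels below are CPM, counts per M after scaling of the library totals. Fibrous matrix genes summed to between 208946 and 258019 CPM and cartilage matrix genes to between 12879 and 27853 CPM, and osteoblast and osteocyte genes (4405 to 5807 CPM) and osteoclast genes (9731 to 11938 CPM) were present too. WT placebo 2 stood apart: the ribosomal RNA entry Rn45s took 16.0% of its counts against 1.83% to 2.94% in the other 4, and skeletal muscle genes summed to 2403 CPM against 155 in WT placebo 1 and 917, 1257 and 222 in the KO libraries. This library is 1 of only 2 in its group, and values without it are given beside several of the results it moves.

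The receptor gene itself was lower in every KO library, but not absent. Esr1 stood at 13.4 and 6.60 CPM in the WT placebo libraries and at 4.86, 3.99 and 2.68 CPM in the KO placebo libraries. The groups did not overlap, but the WT libraries lay further apart than WT placebo 2 lay above the highest KO library. The difference was -1.39 on the log2 scale (SE 0.30) and did not pass edgeR's quasi-likelihood test (adjusted p = 0.468), while DESeq2 gave an adjusted p of 0.0176. It was -0.78 without WT placebo 1 and -1.80 without WT placebo 2. Under estradiol, in libraries other than the placebo ones, Esr1 fell in KO by 1.11 on the log2 scale (adjusted p = 0.0257). Its level was 7.89, 6.76 and 6.43 CPM in WT and 3.41, 2.55 and 3.75 CPM in KO. Both edgeR tests came from the same fit to all 11 libraries, which shares its estimate of the spread. Reads counted over the whole gene remain in the KO libraries, and whether they come from the part left by the allele was not tested. Esr2, which encodes estrogen receptor beta, had 0 and 0 counts in the WT and 1, 2 and 1 in the KO placebo libraries, too few to be tested.

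A single gene passed the test. A2m, which encodes alpha-2-macroglobulin, a secreted trap for many proteases, fell in KO and was the 1 lower gene called at an adjusted p under 0.05 (0.00688% of genes tested), with 0 higher. It read 28.9 and 23.3 CPM in the WT placebo libraries, from 536 and 342 counts. In the KO placebo libraries it read 3.34, 2.67 and 2.55 CPM, from 79, 57 and 60 counts. The lower WT library thus lay far above the highest KO library, and the spread within each genotype was small: 26.1 ± 4.0 CPM (SD, n = 2) against 2.85 ± 0.43 CPM (SD, n = 3). The WT level was 9.12-fold that of KO (log2 -3.19, SE 0.23, adjusted p = 0.000352). A2m was called under each of the 31 alternatives tried, with log2 differences from -3.34 to -3.03 and adjusted p values up to 0.0126.

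Under estradiol the genotypes stood further apart for A2m. WT estradiol libraries read 165, 215 and 129 CPM, and KO estradiol libraries read 2.29, 1.96 and 2.99 CPM, within the range of the KO placebo values or just under it. The genotype difference there was -6.11 (SE 0.23, adjusted p = 1.81e-07), and the test of the 2 differences against each other gave -2.92 (SE 0.33, adjusted p = 0.00177). A2m was therefore lower in KO both with and without the estradiol pellet, and by more with it. Relatives of A2m were near the floor of 3 counts in the placebo libraries: Pzp had 0 counts in 4 libraries and 3 in KO placebo 3, and Mug1 and Mug2 had none. Lrp1, the endocytic receptor that clears A2m bound to proteases, was at 685 and 651 CPM in WT and 738, 795 and 850 CPM in KO placebo libraries.

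**Figure D1:**
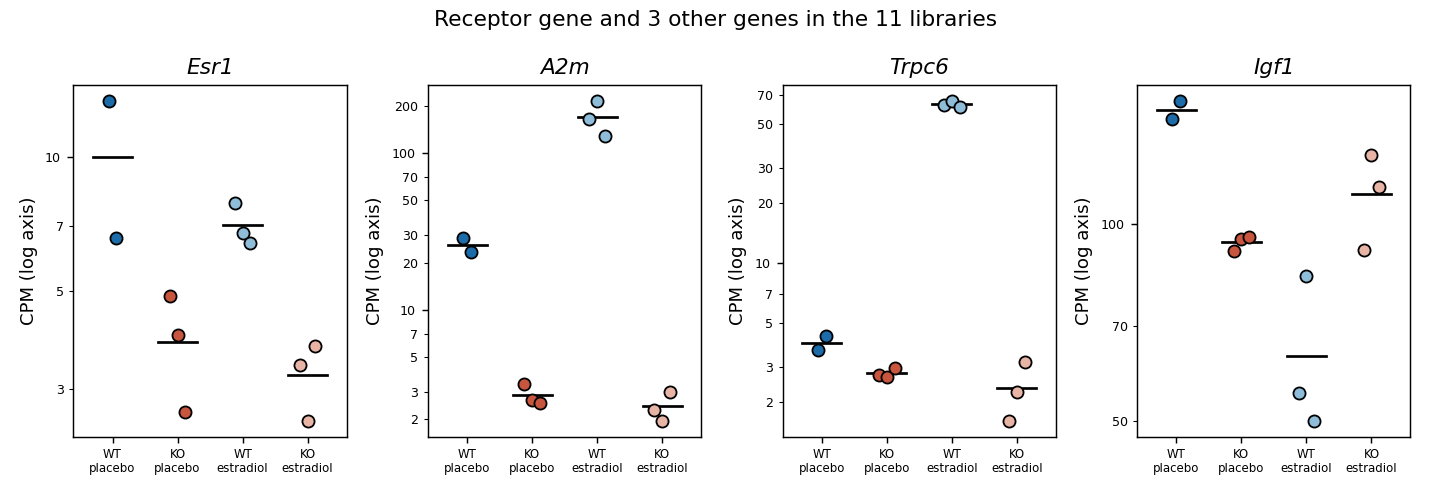
Level in CPM (log axis) of Esr1, A2m, Trpc6 and Igf1 in each of the 11 libraries, 1 point per library, with a line at each group's mean. A2m is 23.3 or more in both WT placebo libraries and 3.34 or less in every KO library, while Trpc6 differs little between genotypes under placebo (3.66 and 4.29 against 2.67 to 2.97) and Igf1 changes the order of the genotypes between the agents.

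Beyond A2m, edgeR called no gene, and the next smallest adjusted p was 0.118. At an unadjusted p under 0.05 there were 1338 genes (9.21%), 727 higher and 611 lower in KO. DESeq2, fitted to the same counts, called 38 genes (0.264%), 21 higher (0.146%) and 17 lower (0.118%), limma-voom called A2m alone, and the authors' deposited table lists 36 genes (0.241%), 17 higher (0.114%) and 19 lower (0.127%). Between the DESeq2 fit here and the authors' deposited table, 18 called genes were shared. Ibsp, Gas1, Nkd2, Rag1 and Ms4a1, named below, were called by DESeq2 but not in that table (adjusted p there 0.130, 0.228, 0.0621, 0.0612 and 0.513). Igf1, Ppbp, Lect1, Ldha and Pgk1 were called in that table but not by DESeq2 here. Of the 38 DESeq2 genes, 5 were called in all 6 DESeq2 fits made with and without each placebo library: A2m, Prss34, Smim5, C430049B03Rik and Gm7120, of which the last pair are unnamed or predicted genes. Some of the 38 followed WT placebo 2. Tnnt1, a slow muscle troponin, was at 12.7 CPM in WT placebo 2 and from 0.340 to 0.719 CPM in the other 4, and Lars2, a mitochondrial leucyl-tRNA synthetase, was at 10989 CPM there against 544 to 1067. Without WT placebo 2, DESeq2 called 20 genes, 10 of them among the 38. Without WT placebo 1, which leaves that library as the only WT control, it called 450, and edgeR 50.

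Genes of hypertrophic and mineralizing cartilage were lower in KO in part. Of 17 tested, 0 were called by edgeR, 5 were lower and 0 higher at an unadjusted p under 0.05, and DESeq2 called 3, all lower. Over all 14531 genes 611 were lower at that p. In 7 of the 17 both WT libraries lay above all 3 KO libraries, against 13.8% of all genes. The median difference of the list was -0.11 against -0.0033 over all genes, and it ran from -0.28 without WT placebo 2 to -0.13 without KO placebo 1 or WT placebo 1. The 5 genes with an unadjusted p under 0.05 were Col10a1, Ihh, Ibsp, Ppa1 and Mgp, and all 5 fell in KO under estradiol, in other libraries, at an adjusted p under 0.05.

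Col10a1, the collagen that marks hypertrophic chondrocytes, was at 2107 and 1615 CPM in the WT placebo libraries and at 675, 594 and 881 CPM in the KO placebo libraries. The lowest WT value was well above the highest KO value. Its log2 difference was -1.38 (SE 0.25, adjusted p = 0.348 in edgeR, 1.23e-05 in DESeq2), and in the estradiol libraries it fell in KO relative to WT by 1.55 (adjusted p = 0.00256), and the test of the difference between the agents gave an adjusted p of 0.932. Ihh, the Indian hedgehog ligand that prehypertrophic chondrocytes secrete to pace the growth of younger cells, was at 30.6 and 33.9 CPM in WT and at 10.8, 11.2 and 17.5 CPM in KO. It too had no overlap, with KO placebo 3 the highest KO library as for Col10a1. Its difference was -1.29 (SE 0.25, adjusted p = 0.387 in edgeR, 0.000686 in DESeq2), and in the estradiol libraries it fell in KO relative to WT by 1.17 (adjusted p = 0.00915). Ibsp, bone sialoprotein, a mineral-binding matrix protein of hypertrophic cartilage and bone, was at 4060 and 3429 CPM in WT and 2475, 2344 and 3034 CPM in KO. Its difference was smaller, -0.52 (SE 0.13, adjusted p = 0.468 in edgeR, 0.0365 in DESeq2), and was -1.12 between the genotypes under estradiol (adjusted p = 0.000174). Without WT placebo 2 the 3 differences were -1.55, -1.22 and -0.63, and without WT placebo 1 they were -1.17, -1.37 and -0.39.

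The 250 bases before the RefSeq start of these 3 genes are shown because their levels were lower together in KO and because estrogen response elements in a promoter are 1 route by which the receptor acts. They come from build GRCm38.p6 and are written 5′ to 3′ on the gene's strand, with TATA boxes and CCAAT boxes in capitals.
Col10a1: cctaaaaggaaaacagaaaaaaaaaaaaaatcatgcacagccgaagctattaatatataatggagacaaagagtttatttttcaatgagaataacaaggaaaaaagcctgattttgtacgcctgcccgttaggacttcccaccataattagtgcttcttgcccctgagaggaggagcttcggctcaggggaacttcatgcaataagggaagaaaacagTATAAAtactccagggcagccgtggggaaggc
Ihh: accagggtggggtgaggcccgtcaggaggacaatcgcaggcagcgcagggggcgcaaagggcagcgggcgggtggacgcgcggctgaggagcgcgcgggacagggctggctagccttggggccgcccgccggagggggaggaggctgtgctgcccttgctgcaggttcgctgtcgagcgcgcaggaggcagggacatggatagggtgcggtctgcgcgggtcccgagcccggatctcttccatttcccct
Ibsp: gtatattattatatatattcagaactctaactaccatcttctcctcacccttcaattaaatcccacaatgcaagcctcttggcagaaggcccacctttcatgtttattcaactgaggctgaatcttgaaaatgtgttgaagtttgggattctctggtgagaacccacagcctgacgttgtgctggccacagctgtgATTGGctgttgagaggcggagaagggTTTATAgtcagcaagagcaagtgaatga
The windows are chr10:34389731-34389980 (plus strand) for Col10a1, chr1:74951673-74951922 (minus strand) for Ihh and chr5:104299037-104299286 (plus strand) for Ibsp. A full estrogen response element, which is GGTCA and TGACC with 3 bases between them, searched on both strands, was in none of the 3 windows and in 0.0639% of 32851 promoters of the same length. Its arm GGTCA alone, in 35.2% of promoters, the RUNX core TGTGGT, in 14.0%, and the AP-1 site TGAGTCA, in 4.46%, were in none of the 3 either; these say only that the letters are not in these windows. TATAAA, in 12.4% of promoters on either strand, lies at -32 to -27 before the Col10a1 start and, as its reverse complement, at -28 to -23 before the Ibsp start. CCAAT, in 33.8% of promoters, lies at -54 to -50 before Ibsp, also as its reverse complement. The Ihh window held none of the 6 motifs and was 72.0% G or C, against 41.6% for Col10a1 and 43.6% for Ibsp.

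Ppa1, an enzyme that splits pyrophosphate, was at 71.2 and 87.8 CPM in WT and 49.4, 47.5 and 67.3 CPM in KO (log2 -0.54, adjusted p = 0.468). Mgp, an inhibitor of cartilage calcification, was at 335 and 334 CPM in WT and 227, 273 and 295 CPM in KO (log2 -0.34). Mmp13, the collagenase of late hypertrophic cartilage, had a difference of -0.32, and Pth1r, the receptor that holds back hypertrophy, of -0.22. Alpl, the alkaline phosphatase of mineralization, and Spp1, osteopontin, differed by -0.02 and -0.07 with overlapping groups. Runx2, the transcription factor that drives hypertrophy and bone formation, was at 273 and 168 CPM in WT and 271, 302 and 225 CPM in KO, and the sign of its difference changed between alternatives.

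**Figure D2:**
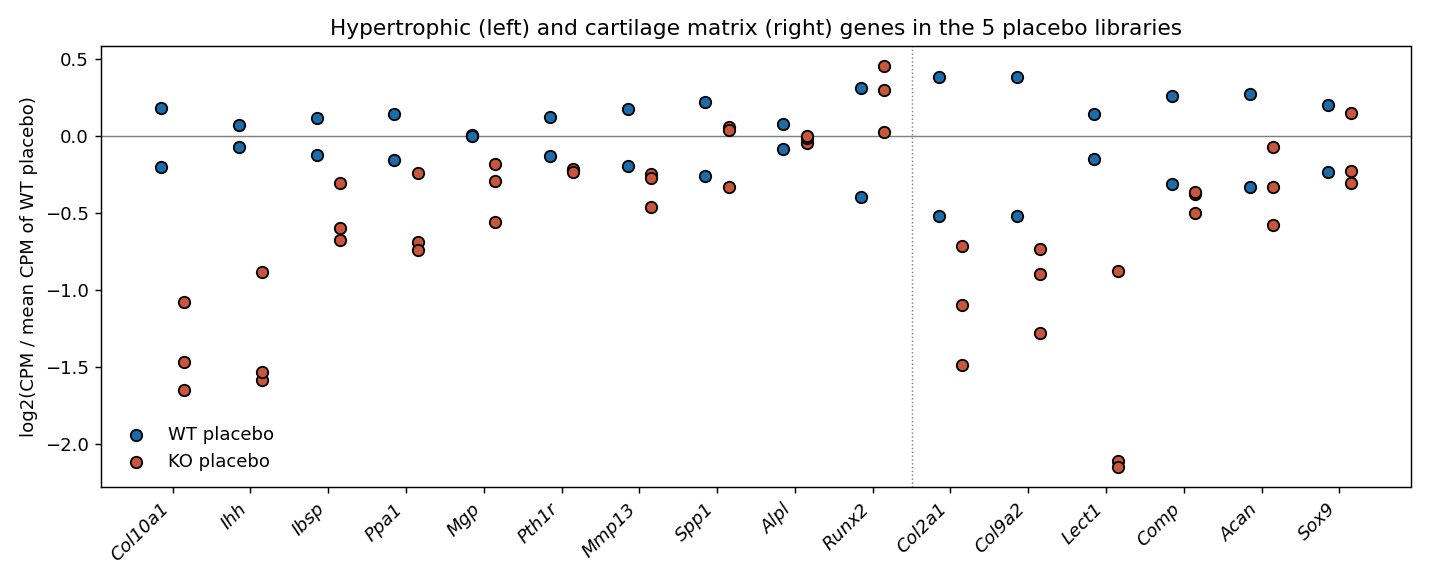
Level of 16 cartilage genes in the 5 placebo libraries as log2 of CPM over the mean CPM of the WT placebo libraries, 1 point per library; 10 hypertrophic genes stand left of the dotted line and 6 cartilage matrix genes right of it. All 3 KO points lie below both WT points for Col10a1, Ihh and Ibsp, and the WT libraries lie far apart for Col2a1 (13538 and 7224 CPM).

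The hedgehog and PTHrP pathway around Ihh gave 0 calls in edgeR among 15 tested, with 2 higher and 1 lower at an unadjusted p under 0.05. DESeq2 called Ihh lower and Gas1 higher. Gas1, a surface co-receptor that helps cells bind hedgehog ligand, was at 106 and 116 CPM in WT and 134, 166 and 141 CPM in KO, without overlap (log2 0.40, SE 0.10, adjusted p = 0.468 in edgeR, 0.0496 in DESeq2). It rose in KO under estradiol by 0.42 (adjusted p = 0.00878). Boc, another co-receptor, was at 67.9 and 76.5 CPM in WT and 89.0, 93.4 and 97.6 CPM in KO (log2 0.37). Readouts of hedgehog activity overlapped between the genotypes: Gli1 was at 78.1 and 86.6 CPM in WT and 74.8, 62.2 and 88.6 CPM in KO, and Ptch1, the hedgehog receptor, ran from 59.3 to 176 CPM in WT with the KO libraries between.

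Cartilage matrix genes were lower in KO in part, and the 2 WT libraries disagreed on their level. Of 22 tested, 0 were called by edgeR or DESeq2. At an unadjusted p under 0.05, 5 were lower, against 611 of all 14531 genes, and the median was -0.40. Col2a1, the main collagen of cartilage, was at 13538 and 7224 CPM in WT and 4862, 3706 and 6317 CPM in KO. The WT values lay further apart than WT placebo 2 lay above the KO libraries. Its log2 difference was -1.07 (SE 0.43, adjusted p = 0.538), and -0.54 without WT placebo 1. Lect1, the anti-angiogenic chondromodulin of avascular cartilage, was at 27.2 and 22.2 CPM in WT and 5.75, 5.58 and 13.5 CPM in KO (log2 -1.58, SE 0.50, adjusted p = 0.511 in edgeR, 0.0197 in the authors' deposited table). Matn3, a matrix adaptor protein, was at 42.5 and 12.9 CPM in WT and 10.1, 4.74 and 8.41 CPM in KO (log2 -1.85). Under estradiol Col2a1, Lect1 and Matn3 differed between the genotypes by -0.70, -0.90 and -1.16, none called by edgeR (adjusted p = 0.292, 0.243 and 0.284). Acan, the large proteoglycan of cartilage, and Sox9, its master transcription factor, overlapped between the groups, at 1659 and 1093 CPM in WT and 1309, 921 and 1093 CPM in KO for Acan. Without WT placebo 1 the Matn3 difference was -0.74 and without WT placebo 2 it was -2.45. The list median was -0.02 without WT placebo 1 and -0.62 without WT placebo 2.

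Of 13 superficial zone and lubrication genes tested, 0 were called by edgeR or DESeq2, 2 were higher and 0 lower at an unadjusted p under 0.05, and 5 had a negative difference. The median was 0.18, -0.08 without WT placebo 1 and 0.40 without WT placebo 2. Has2, a hyaluronan synthase, was at 12.3 and 9.66 CPM in WT and 6.64, 9.47 and 7.48 CPM in KO (log2 -0.49, adjusted p = 0.545). Prg4, the lubricin that coats joint surfaces, was at 29.2 and 85.6 CPM in WT and 141, 170 and 106 CPM in KO, without overlap (log2 1.28, SE 0.46, adjusted p = 0.538). The difference was 2.26 without WT placebo 2 and 0.70 without WT placebo 1, and Prg4 was called when the summed muscle genes were a covariate. In the estradiol libraries the Prg4 difference was -0.33 (adjusted p = 0.642 in edgeR), with overlapping groups. Vcan, a large proteoglycan of fibrous tissue, was at 110 and 149 CPM in WT and 190, 174 and 197 CPM in KO (log2 0.53), and rose in KO under estradiol (log2 1.21, adjusted p = 0.000578). Of 26 fibrous matrix genes tested, 0 were called by edgeR or DESeq2, 2 were higher and 1 lower at an unadjusted p under 0.05, and the median was -0.01. Osteoblast and osteocyte genes had 0 of 17 members at an unadjusted p under 0.05 and a median of 0.19, which was 0.06 without WT placebo 2, and no member was called by edgeR or DESeq2.

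Among growth factors, Igf1, the growth factor through which growth hormone acts in cartilage, was at 145 and 154 CPM in WT placebo and 91.1, 95.1 and 95.6 CPM in KO placebo libraries. The groups were tight and separate (log2 -0.67, SE 0.19, adjusted p = 0.468 in edgeR, 0.0988 in DESeq2). The authors' deposited table gives Igf1 an adjusted p of 6.1e-09, but Igf1 was called in 0 of the 31 alternatives tried here. Under estradiol the order turned: Igf1 was at 55.3, 83.5 and 50.1 CPM in WT and 91.3, 128 and 114 CPM in KO (log2 0.82, adjusted p = 0.0125), and the 2 genotype differences differed from each other (adjusted p = 0.0201). Gdf5, a BMP of joint formation, was at 3.61 and 6.94 CPM in WT and 2.07, 1.73 and 3.06 CPM in KO (log2 -1.19, adjusted p = 0.468), and its difference was -0.65 without WT placebo 2. Of 35 BMP and TGF-beta genes tested, 4 were higher and 1 lower at an unadjusted p under 0.05, and the median was 0.16, or 0.07 without WT placebo 2. Nkd2, which dampens Wnt signalling, was at 11.1 and 12.7 CPM in WT and 17.0, 20.9 and 19.5 CPM in KO (log2 0.69, SE 0.13, adjusted p = 0.343 in edgeR, 0.00836 in DESeq2), and it rose in KO relative to WT in the estradiol libraries (adjusted p = 0.00146). Of 33 Wnt genes, 4 were higher and 1 lower at that p. In these 2 lists edgeR called no gene, and DESeq2 called Nkd2 alone.

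Of the 24 genes tested that respond to estrogen in other tissues, A2m was the 1 called, and 1 was higher and 5 lower at an unadjusted p under 0.05. Several genes with large genotype differences under estradiol had small ones without it. Trpc6, a calcium channel gene, was at 3.66 and 4.29 CPM in WT placebo and 2.75, 2.67 and 2.97 CPM in KO placebo (log2 -0.50, adjusted p = 0.538), against -4.72 under estradiol (adjusted p = 5.76e-08). Greb1, a classical receptor target, was at 0.215 and 0.068 CPM in WT and at or under 0.169 CPM in KO, at or near the floor. Cxcl12, a chemokine, overlapped between genotypes at 235 and 216 CPM in WT and 197, 253 and 188 CPM in KO, against 2.67 under estradiol. Wnt4, a Wnt ligand, differed by -0.13 and Sost, the osteocyte inhibitor of Wnt, by 0.27, against -1.53 and -1.31 under estradiol. Pgr, the progesterone receptor, had 3 counts in WT placebo 1 and 0 in the other 4 placebo libraries. In the estradiol libraries Pgr was at 0.671, 0.736 and 0.289 CPM in WT and 0, 0 and 0.089 CPM in KO, a genotype difference with an adjusted p of 0.0422.

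Blood cell genes stood higher or lower in KO under placebo depending on the lineage. Because all cells of the tissue were sequenced together, fewer cells of a type and less RNA per cell cannot be told apart. B cell genes were higher in KO: of 18 tested all had a positive difference, 13 had an unadjusted p under 0.05 (9.21% of all genes in either direction), in 10 the groups did not overlap (13.2% of all genes), and the median was 1.23, from 0.93 to 1.48 with a library left out. edgeR called 0 of them and DESeq2 called 3, Rag1 and Ms4a1 among them. Summed over the list, the level was 114 and 102 CPM in WT and 336, 274 and 148 CPM in KO, with KO placebo 3 nearest to WT. Rag1, part of the recombinase of B and T cell precursors, was at 5.76 and 4.01 CPM in WT and 39.99, 24.4 and 12.7 CPM in KO (log2 2.38, SE 0.53, adjusted p = 0.468 in edgeR, 0.0309 in DESeq2). Under estradiol all 18 rose in KO at an adjusted p under 0.05, as did 1056 of all 14531 genes. Summed levels there were 31.1 to 36.9 CPM in WT and 314 to 543 CPM in KO.

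A pair of basophil protease genes was lower in KO under placebo. Prss34, a basophil protease, had 36 and 67 counts in the WT placebo libraries and 0, 3 and 0 in the KO placebo libraries, 70.7 times as many in WT per M counts (95% counting interval 23.5 to 349), with an adjusted p of 0.118 in edgeR and 3.62e-06 in DESeq2. Mcpt8, another basophil protease, had 20 and 26 counts in WT and 0, 1 and 1 in KO, 47.4 times as many in WT (12.4 to 403) (adjusted p = 0.127 in edgeR, 0.00494 in DESeq2). Intervals and floors cover counting error only, since PCR copies of a molecule were not told apart. Under estradiol the direction turned for both, with 0 counts in all 3 WT libraries and 52 to 74 counts of Prss34 in the KO libraries, and the test of the difference between the agents gave adjusted p values of 0.00106 and 0.00115. Epx, eosinophil peroxidase, overlapped between the genotypes, at 5.65 and 23.7 CPM in WT and 0, 20.1 and 8.49 CPM in KO. Of 17 basophil, mast cell and eosinophil genes tested, 2 were lower at an unadjusted p under 0.05, and the list median of -0.94 became 0.41 without WT placebo 2.

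Neutrophil genes varied more between libraries than between genotypes under placebo. Without Mmp9, which osteoclasts also express, their summed level was 235 and 523 CPM in WT and 1.73, 814 and 186 CPM in KO, so KO placebo 1 held nearly none. This exception was chosen after the values were seen. Of 19 neutrophil genes tested, 0 had an unadjusted p under 0.05 and edgeR and DESeq2 called 0. Megakaryocyte and platelet genes summed to 192 and 186 CPM in WT and 182, 205 and 189 CPM in KO. Ppbp, a platelet chemokine, was at 4.09 and 4.56 CPM in WT and 0.254, 0.563 and 0.170 CPM in KO. Its adjusted p was 0.545 in edgeR, 0.358 in DESeq2 and 1.34e-08 in the authors' deposited table. Of 14 megakaryocyte and platelet genes 13 had a negative difference, against 7358 of all 14531 genes, 2 of them at an unadjusted p under 0.05. In 8 of the 14 both WT libraries lay above all 3 KO libraries, against 13.8% of all genes. In 1 all KO libraries lay above both WT libraries. The list median was -0.72, from -1.07 to -0.47 with a library left out, and edgeR and DESeq2 called 0. The part of any 1 blood lineage or of marrow cells in the results for cartilage genes was not tested. In KO placebo 1, where neutrophil genes were lowest, Col10a1 (675 CPM) lay between the other KO libraries and Ihh (10.8 CPM) lay below them. Values of 1 library cannot show what part such cells have.

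**Figure D3:**
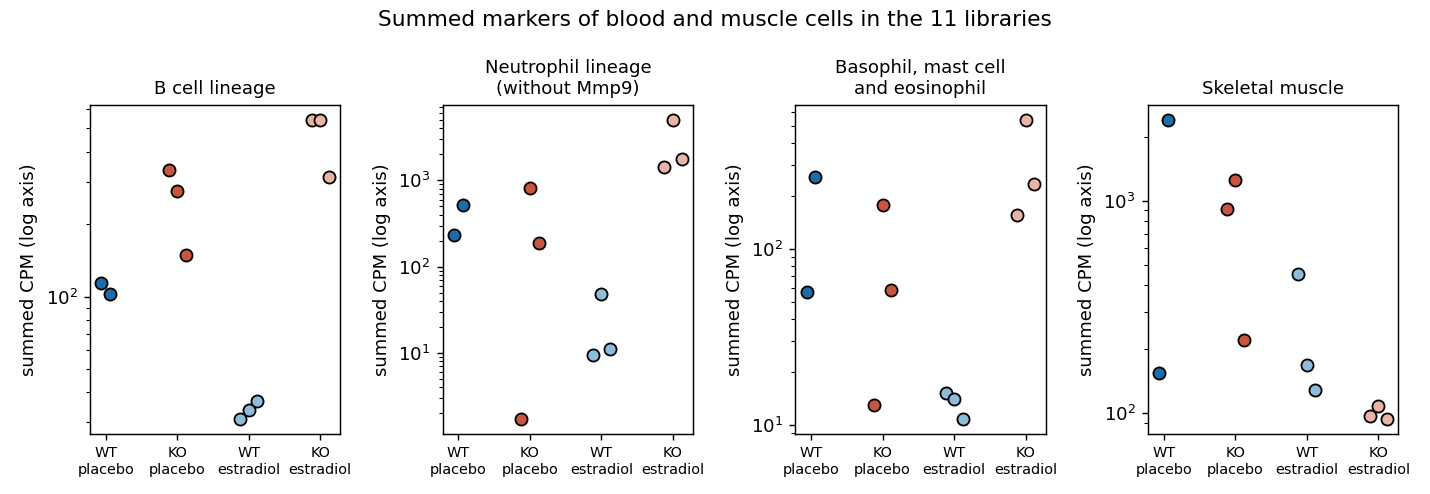
Summed level in CPM (log axis) of marker genes of B cells, neutrophils (without Mmp9), basophils with mast cells and eosinophils, and skeletal muscle in each of the 11 libraries, 1 point per library. B cell sums of the KO placebo libraries (148 to 336) lie above the WT placebo libraries (102 and 114), and muscle sums spread from 155 to 2403 within WT placebo.

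The 20 genes ranked first under placebo, 10 in each direction with separate groups and a mean of at least 1 CPM, included genes outside these pathways. Predicted genes, names ending in Rik and genes under that mean, such as Mcpt8, were left out of this ranking. Higher in KO was Slc20a2, a sodium-phosphate transporter of the cell surface, at 136 and 126 CPM in WT and 195, 204 and 179 CPM in KO (log2 0.56, SE 0.10, adjusted p = 0.272 in edgeR, 0.000561 in DESeq2). It rose in KO relative to WT in the estradiol libraries by 1.11 (adjusted p = 2.11e-05). Reln, a secreted glycoprotein known from neuron migration, was at 0.323 and 0.544 CPM in WT and 2.79, 2.58 and 1.78 CPM in KO (log2 2.47, SE 0.55, adjusted p = 0.468), and in the estradiol libraries it rose in KO relative to WT by 4.59 (adjusted p = 0.000347). Dtna, a dystrophin-associated protein, was at 12.1 and 8.57 CPM in WT and 22.4, 22.6 and 17.5 CPM in KO (log2 1.01), and Magi2, a junction scaffold protein, at 26.2 and 19.1 CPM in WT and 36.9, 40.4 and 38.3 CPM in KO (log2 0.76). Under estradiol Dtna and Magi2 differed by 0.28 and 0.35, neither called by edgeR (adjusted p = 0.309 and 0.115). Ddx26b, Ttc14, Rasa2, Fam65c and Scai had differences from 0.40 to 0.59 under placebo.

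Lower in KO was Smim5, a small membrane protein, at 14.8 and 14.97 CPM in WT and 6.98, 7.46 and 8.79 CPM in KO (log2 -0.94, SE 0.15, adjusted p = 0.127 in edgeR, 0.000269 in DESeq2). Under estradiol its difference was -0.24 (adjusted p = 0.262). Bst2, the interferon-induced virus tether tetherin, was at 17.8 and 19.3 CPM in WT and 13.0, 13.4 and 13.8 CPM in KO (log2 -0.46), and in the estradiol libraries it fell in KO relative to WT by 1.45 (adjusted p = 3.33e-06). Of 24 interferon-stimulated genes tested 3 were lower and 0 higher at an unadjusted p under 0.05, and edgeR and DESeq2 called 0. Foxa3, a forkhead transcription factor, was at 2.85 and 3.81 CPM in WT and 1.10, 1.17 and 1.78 CPM in KO (log2 -1.29), and in the estradiol libraries it fell in KO relative to WT by 1.38 (adjusted p = 0.00639). Cyb5r1 and Pisd-ps1 differed by -0.46 and -0.63.

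The estradiol libraries gave another measure of the genotype difference, with no library in common, though the same fit gave both and shared its estimate of the spread. There edgeR called 1667 genes (11.5%), 1056 higher and 611 lower in KO. Of the 20 genes ranked first under placebo, 19 had the same direction under estradiol, 11 of them with a call, and Prss34 was called in the opposite direction. Over all 14531 genes 64.7% had the same direction. With a call under estradiol, 1180 had the same direction and 487 the opposite. Among the 1338 with an unadjusted p under 0.05 under placebo 80.9% had the same direction. Of these, 269 had a call in the same direction and 36 in the opposite. Across the 14531 genes the 2 sets of log2 differences correlated with r = 0.15 (Pearson) and rho = 0.32 (Spearman), a description across genes, which are not independent replicates. The difference between the agents itself passed the test for 122 genes with a higher KO effect under estradiol (0.840%) and 45 with a lower one (0.310%).

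**Figure D4:**
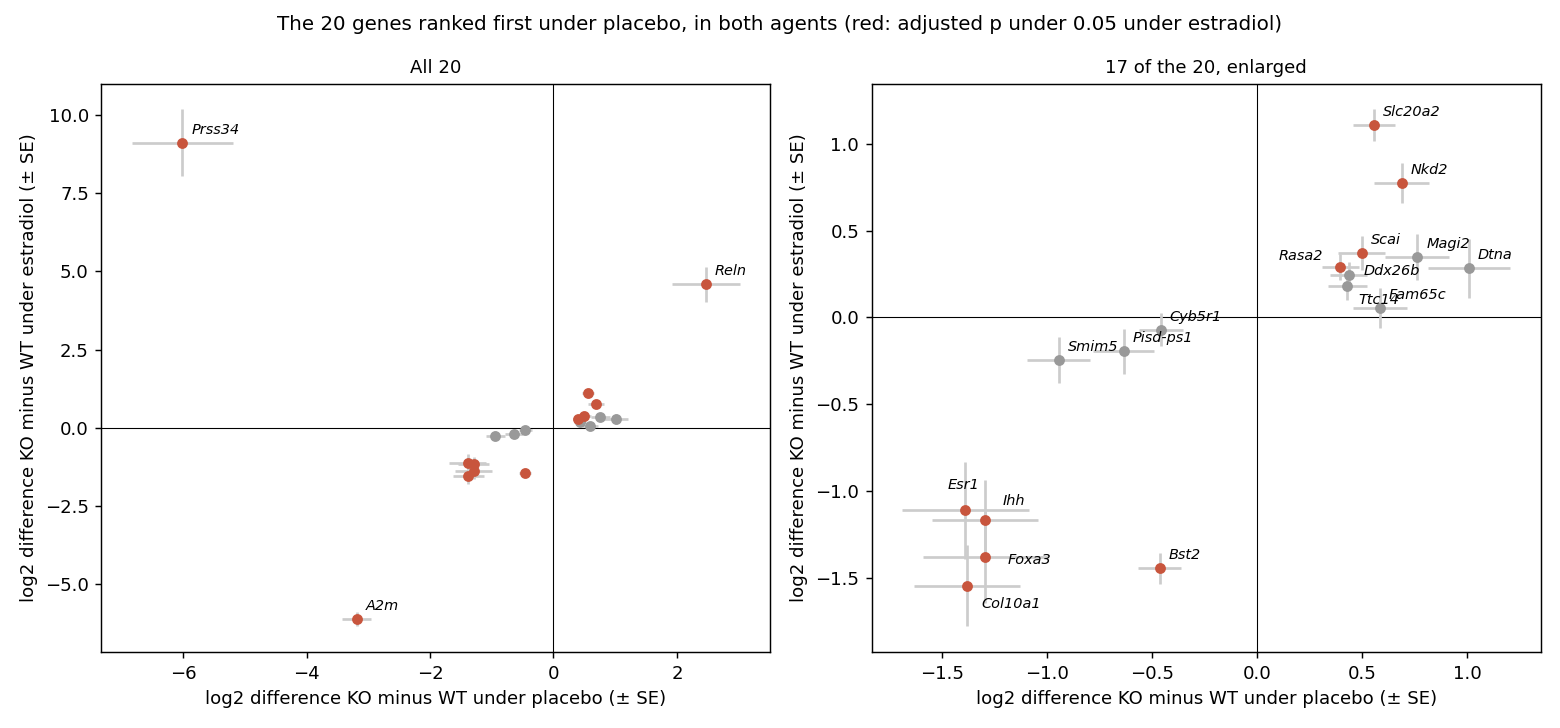
Log2 difference KO minus WT under placebo (x axis) and under estradiol (y axis), each ± SE, for the 20 genes ranked first under placebo (left) and for 17 of them enlarged (right); red marks an adjusted p under 0.05 under estradiol. All points but Prss34 lie in the lower left or upper right, A2m at -3.19 and -6.11.

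**Figure D5:**
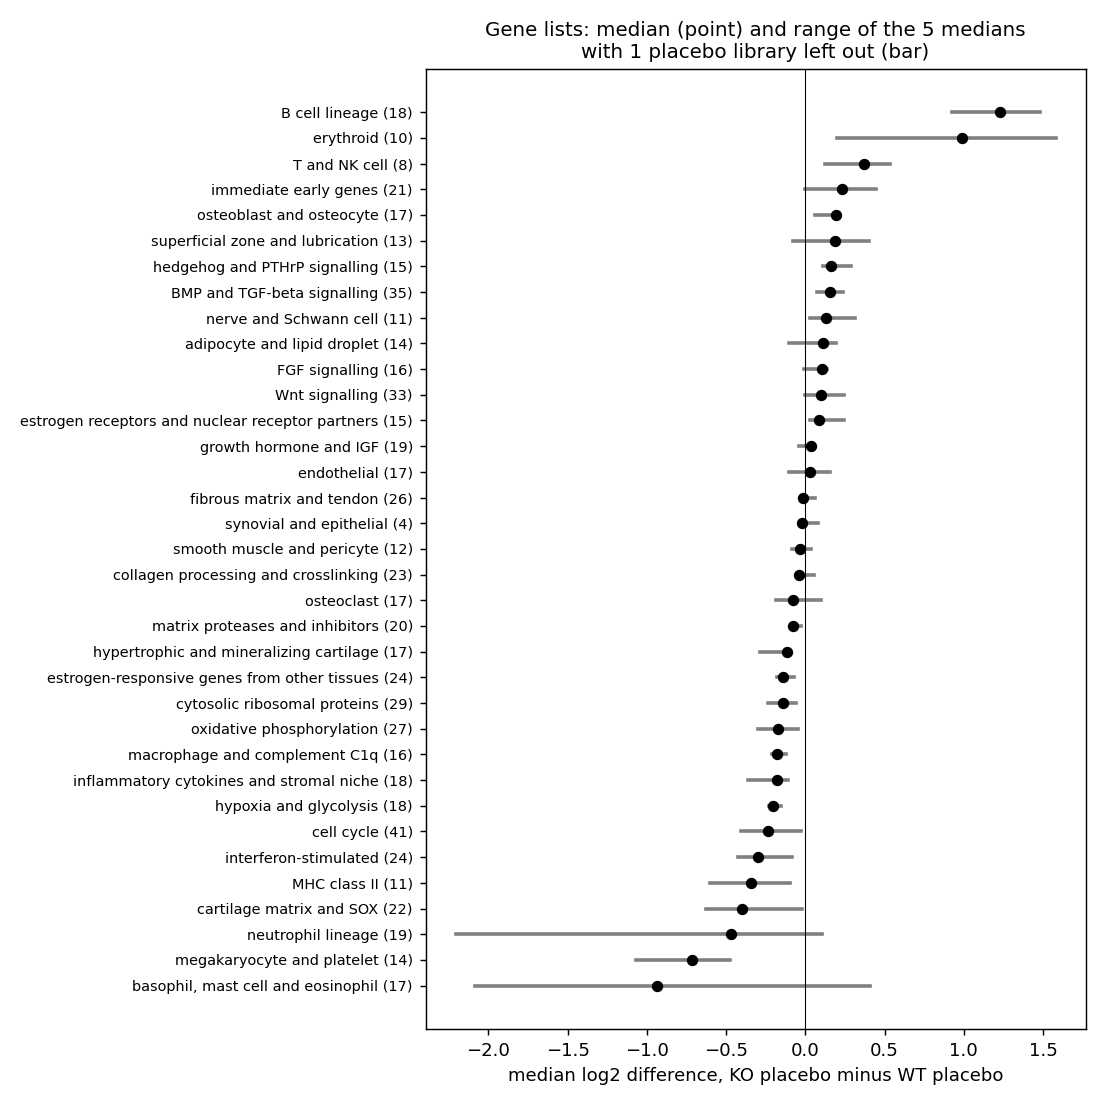
Median log2 difference KO placebo minus WT placebo of 35 gene lists (point, number of genes tested in brackets) and the range of the 5 medians with 1 placebo library left out (bar); the skeletal muscle list, at -0.74 with a range from -1.71 to 3.31, is not drawn. The B cell list has the highest median, 1.23, and the bars of the neutrophil and basophil lists cross 0.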

How the data were processed

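Of the upstream steps, bcl2fastq 2.17, TopHat and build mm9 are named, per the submitters' processing notes; strand, annotation and gene counter were not given in the sources used here. Raw counts were deposited for 23420 symbols, of which 27 had turned into dates, as the values show, and 0 columns were unmapped. The authors' deposited table of this comparison gives log2 fold changes, p-values and a test score, per the file headers.

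In R 4.3.3, edgeR 4.0.16 kept genes with filterByExpr (count 10, total 15), scaled totals by TMM and fitted a robust quasi-likelihood model to 4 groups over all 11 libraries (7 residual degrees of freedom). Adjusted p values are Benjamini-Hochberg over 14531 genes, and a gene was called under 0.05. SEs are the log2 difference over the root of F; a floor is 3 counts. DESeq2 1.42.0 and limma 3.58.1 were alternatives, as were other scalings, filters, covariates, a replicate block and each library left out. Scripts were tested on simulated data. No pair of libraries of a group agreed within sampling noise. Counts of overlapping, antisense and near-identical genes are uncertain.

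Genes were named by rule: up to 12 called per direction with a mean of at least 1 CPM and separate groups, filled to 10 by smallest p, up to 3 per list by smallest p, and a fixed set of receptor, cartilage and target genes. Further list members were named after their values were seen. The members, the 36 lists and the rule were chosen with earlier results of these data known. Promoters are from RefSeq (GRCm38.p6), matched by symbol for 3 genes, and the TATA and CCAAT motifs were added after the sequences were seen. Some named genes are not reported here.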

Additional observations from a re-analysis of the deposited data

Results flagged for a closer look

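For 13 named genes the KO minus WT difference under estradiol differed from that under placebo in edgeR's interaction test at an adjusted p under 0.05. Values here are the difference under estradiol minus that under placebo, on the log2 scale. It was negative for Greb1 (-6.95), Trpc6 (-4.22), A2m (-2.92), Sost (-1.58), Wnt4 (-1.40) and Bst2 (-0.98). It was positive for Cxcl12 (2.75), Igf1 (1.49) and Rrm2 (1.21), a nucleotide reductase subunit of dividing cells. Among blood cell genes it was positive for Prss34 (15.1), Mcpt8 (13.4), Nkg7 (7.23) and Rag1 (6.68). The values of Prss34, Mcpt8, Greb1, Rag1 and Nkg7 rest on groups at or near 0 counts and are fitted values, not measured folds.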

How the results depend on the processing

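The placebo count of 1 became 38 with DESeq2, 3 with a muscle covariate, 2 with a neutrophil covariate and 2 with that covariate without Mmp9 (chosen after seeing the data). With a library left out it ran from 1 to 50 in edgeR and from 8 to 450 in DESeq2 (also chosen after seeing the data): edgeR gave 50 without WT placebo 1 and 2 without KO placebo 3 or without WT estradiol 3, and DESeq2 gave 450 and 20 without WT placebo 1 and 2 and 13, 8 and 73 without KO placebo 1, 2 and 3. The replicate block gave 17, Rag1 among them. The 2 placebo pairs share only a number (correlations 0.083 and 0.20). Placebo and estradiol libraries of the same number correlated at 0.29, 0.39 and 0.14 in KO and at -0.20 and -0.16 in WT. The estradiol count of 1667 became 2512 at an adjusted p under 0.1, 646 with a 2-fold minimum, 385 and 152 with the 2 neutrophil covariates and 867 to 1850 with a library left out. The difference count of 167 became 395 at 0.1, 554 with DESeq2, 69 with limma-voom, 48 and 10 with the neutrophil covariates, 301 with the block and 68 to 270 with a library left out. Esr1 was called by DESeq2 with all placebo libraries (-1.39), without KO placebo 1 (-1.60) and without WT placebo 2 (-1.80, adjusted p = 0.000793), and ranged from -1.80 to -0.78 with a library left out. The cause of these shifts was not tested. Of 126 named genes under placebo, 1 (A2m) was called in every alternative, 80 in none, and 14 changed sign; of the 14, Lpl was called by DESeq2 without WT placebo 1 (-0.97) and was 0.12 without WT placebo 2. With 2 WT libraries, the spread comes mostly from the other groups.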

Other observations

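Over all 14531 genes 7358 had a negative difference, and 611 were lower at an unadjusted p under 0.05. Of 18 hypoxia and glycolysis genes tested 17 had a negative difference and 6 an unadjusted p under 0.05, with a median of -0.20. In this list edgeR and DESeq2 called 0. Ldha, which makes lactate, was at 640 and 638 CPM in WT and 522, 490 and 493 CPM in KO (log2 -0.35, adjusted p = 0.468). Pgk1, a glycolytic kinase, was at 121 and 115 CPM in WT and 89.7, 86.7 and 90.6 CPM in KO, also without overlap. All 27 oxidative phosphorylation genes had a negative difference, with a median of -0.17 that was -0.05 without WT placebo 2. Of them, 5 (18.5%) had an unadjusted p under 0.05. All 29 ribosomal protein genes tested were negative with a median of -0.14, -0.06 without WT placebo 2. Only 1 (3.45%) had an unadjusted p under 0.05, below the share of all genes. Of 41 cell cycle genes 37 were negative, 3 of them (7.32% of the list) at an unadjusted p under 0.05. Their median of -0.24 was -0.03 without WT placebo 2. In these 3 lists, edgeR and DESeq2 called 0 genes. Both WT libraries lay above all 3 KO libraries for 12 of the 27 oxidative phosphorylation genes and 17 of the 29 ribosomal genes. The same held for 5 of the 41 cell cycle genes and 7 of the 18 hypoxia and glycolysis genes, against 13.8% of all genes.

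Medians of the lists differed in how far they depended on 1 library. The skeletal muscle median of -0.74 ran from -1.71 without WT placebo 1 to 3.31 without WT placebo 2. Most list medians kept their sign under each alternative, those of the B cell, hedgehog, BMP and TGF-beta, and glycolysis lists among them. So did those of the cartilage matrix, hypertrophic, cell cycle, oxidative phosphorylation and ribosomal lists.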
